A study of Mus musculus with 13 samples.

Results

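The genes described here encode the protein shells of plasma lipoproteins and the transfer protein that loads apolipoprotein B with lipid. They are Apoa1, Apoa2, Apoa4, Apoa5, Apob, Apoc1, Apoc3, Apoe, Apom and Mttp, chosen by symbol from the deposited liver table. All 10 are among its 11779 listed genes. The study asked how depletion of LL35, a long non-coding RNA also named Falcor, changes gene expression in murine hepatocytes. Its liver libraries come from Balb/c mice collected on day 5 after the injection of antisense oligonucleotides (ASOs) conjugated to GalNAc, a sugar that hepatocytes take up. The Liver LL35 ASO group has 3 mice given a mix of 5 ASOs against LL35, and the Liver Luc ASO group has 3 mice given a GalNAc-conjugated ASO against firefly luciferase. The labels give 150 mg/kg for each ASO of the mix, while the methods of the study give that figure as a total. The number of 5 ASOs is that of the labels and the main text, while the study's supplementary list for the in vivo work holds fewer against LL35. All mice of both groups received an ASO, and the age of the mice is not given in the sources used here. The 7 libraries of AML12, a murine hepatocyte cell line, were not analysed here.

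The values below are means over the compared liver libraries, so each gene has 1 value that joins the LL35 ASO and Luc ASO groups. The spread between mice is not known from such a mean, and no difference between the groups is reported. The unit is the mean normalized count, the number of reads on a gene after each library is divided by a factor that corrects for depth. The lowest listed value was 15.6 and the median was 235. In RNA from whole liver, fewer cells of a type and less RNA per cell cannot be told apart.

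The liver packs triglyceride and cholesterol into very-low-density lipoprotein (VLDL). A single apolipoprotein B chain surrounds each particle, and microsomal triglyceride transfer protein adds lipid to it in the endoplasmic reticulum. High-density lipoprotein (HDL) carries apolipoproteins A-I and A-II instead. Smaller apolipoproteins move between particles and set how fast lipases and receptors clear them.

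The lipoprotein genes were among the most abundant transcripts of these livers. Together they held 480874 of the 11299288 mean normalized counts of the listed genes, or 4.26%. Apob, which encodes the structural protein of VLDL, had 195548.5 mean normalized counts and rank 2 of all listed genes. Above it stood only Alb, the gene of serum albumin, and directly below it Trf, the gene of transferrin. Apoe, whose product is a ligand for receptors that clear remnant particles, had 92535.0 mean normalized counts and rank 5. Apoa1, the main structural gene of HDL, had 81025.1 mean normalized counts and rank 8. These 3 genes were among the 10 highest, and 6 of the 10 members were among the 100 highest.

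The other members covered a wide range of mean normalized counts. Apoa2, the second HDL structural gene, had 35680.3 mean normalized counts, and Apoa4, whose product travels on chylomicrons, VLDL and HDL, had 29600.9. Apoa5, whose product promotes triglyceride clearance, had 17984.3. Apoc1, which encodes a small exchangeable apolipoprotein, had 10838.0, and Apoc3, whose product slows triglyceride clearance, had 9640.7. Mttp, the gene of the transfer protein, had 5995.3. Apom, whose product carries sphingosine-1-phosphate on HDL, was lowest with 2026.3 mean normalized counts and rank 803. This lowest member still lay 8.63 times above the median listed gene.

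**Figure D1:**
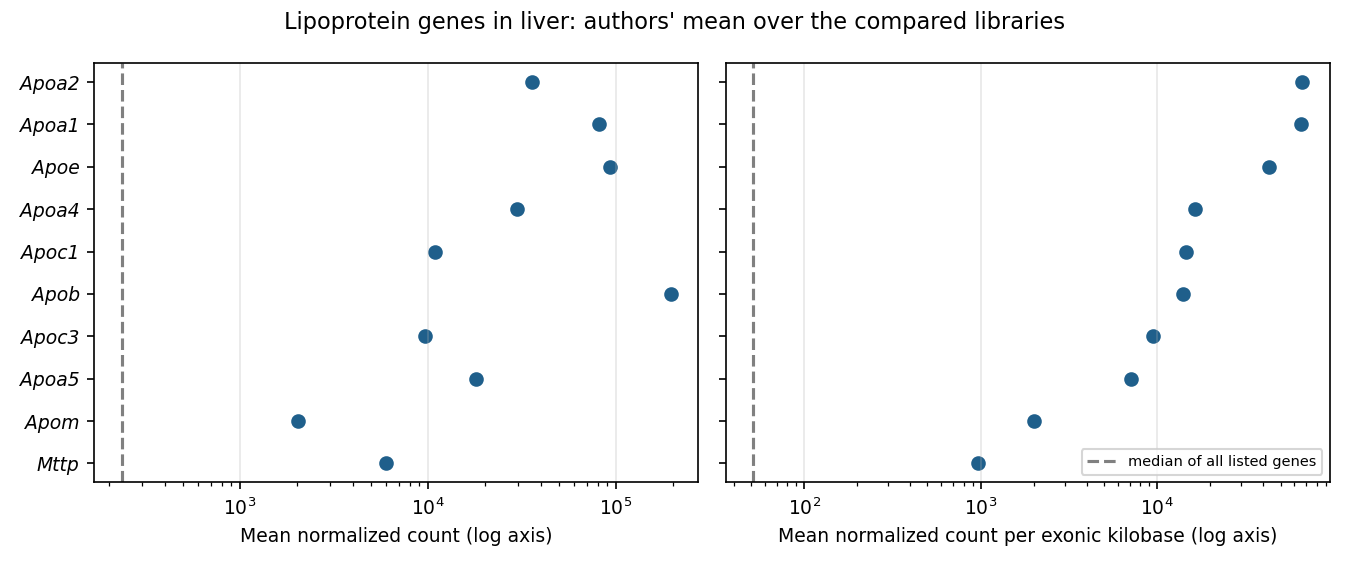
Mean normalized count of each lipoprotein gene (left) and the same value divided by exonic length in kilobases (right), both on log axes, with the median of all listed genes as a dashed line. Each point is the authors' mean over the compared liver libraries, with no error bar because values of single mice are not known, and every point lies to the right of the median.

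Long transcripts collect more reads, so levels of different genes were compared per length. Exonic length is the number of bases covered by any exon of the gene in GENCODE release M21. It was 13934 bases for Apob and 537 bases for Apoa2, the longest and the shortest of the members. On this scale the order turned. Apoa2 was highest with 66444 mean normalized counts per kilobase, and Apoa1 followed with 65554. Only Alb stood above them among the 11754 genes with an exonic length. Apoe had 43281 counts per kilobase and rank 6. The HDL genes Apoa1, Apoa2 and Apom together held 55.9% of the members' summed level per kilobase, while Apob held 5.85%. Before division by length, Apob had held 40.7% of the members' summed counts and these HDL genes 24.7%.

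Below Apoe there was a gap of 2.65 times to Apoa4, which had 16309 counts per kilobase. Apoc1 had 14567 and Apob had 14034 counts per kilobase, so these 3 genes lay close together. Apoc3 followed with 9508 and Apoa5 with 7131. A second gap, of 3.56 times, separated Apoa5 from Apom with 2000 counts per kilobase. Mttp was lowest with 966 counts per kilobase, 14.5 times below Apob. The 10 members spanned 68.8 times from highest to lowest, and Mttp stood 18.8 times above the median listed gene. Neighbours in this order were as close as 1.01 times for Apoa2 over Apoa1 and 1.04 times for Apoc1 over Apob. Whether they differ beyond the spread between mice could not be tested.

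Coding length is the length of the longest coding sequence of the gene, while reads on its other exonic bases were still counted. Division by coding length kept Apoa2, Apoa1 and Apoe highest and Apom and Mttp lowest. It changed the place of the 5 genes between them. Apob then stood at place 8 of 10 with 14469 mean normalized counts per coding kilobase, and Apoc1 at place 4 with 41053. The coding part is 13515 of the 13934 exonic bases of Apob but 264 of the 744 exonic bases of Apoc1. Ratios between genes moved as well: Apob lay 6.58 times above Mttp per coding kilobase, against 14.5 times per exonic kilobase.

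**Figure D2:**
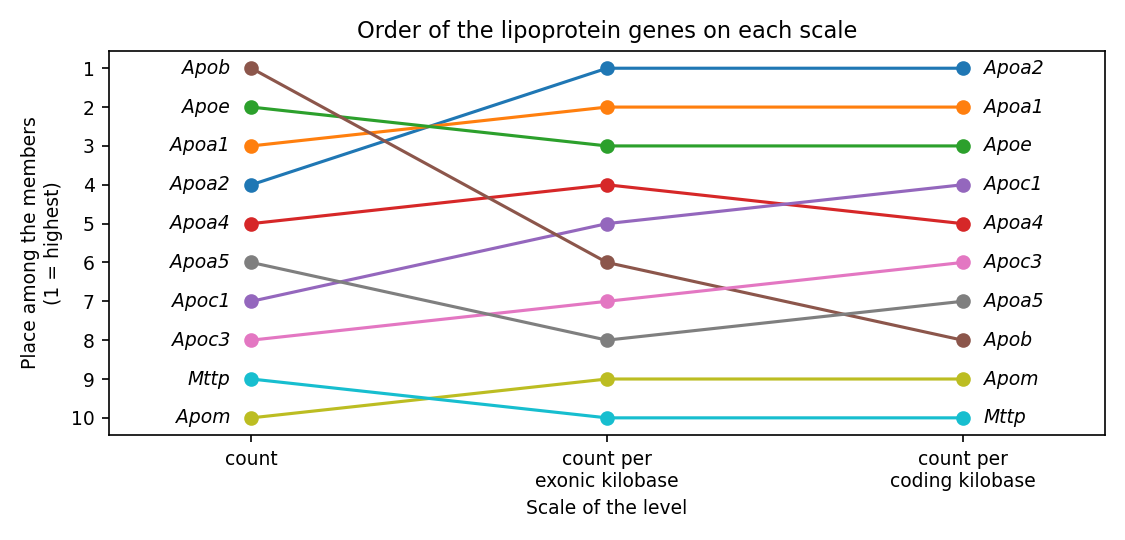
Place of each lipoprotein gene among the 10 members (1 is the highest) by mean normalized count, by count per exonic kilobase and by count per coding kilobase, with 1 line per gene. Apob drops from place 1 by count to place 6 and place 8 per length, while Apoa2 moves from place 4 to place 1.

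The members lie in gene clusters and at single sites. In the RefSeq gene order of GRCm38.p6, Apoa1, Apoc3, Apoa4 and Apoa5 are consecutive protein-coding genes on chromosome 9, and Apoc1 and Apoe are neighbours on chromosome 7. Within the chromosome 9 cluster the level per exonic kilobase of Apoa1 was 4.02 times that of Apoa4, 6.89 times that of Apoc3 and 9.19 times that of Apoa5. Per coding kilobase these ratios were 4.1, 4.36 and 6.28. On chromosome 7 the level of Apoe was 2.97 times that of Apoc1 per exonic kilobase and 2.42 times per coding kilobase. Genes that lie side by side thus had unequal levels. The 4 genes on chromosome 9 held 41.1% of the members' summed level per kilobase, and the pair on chromosome 7 held 24.1%. Apoa2 lies on chromosome 1, Mttp on chromosome 3, Apob on chromosome 12 and Apom on chromosome 17.

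Some reads could belong to overlapping genes. In GENCODE M21 no member shares exonic bases with another gene on its own strand. On the opposite strand, Gm47528 and Gm10680 overlap 1266 of the 1815 exonic bases of Apoa4. Gm47544 overlaps 524 of the 2522 exonic bases of Apoa5, and Gm43691 and Trmt10a overlap 589 of the 6206 of Mttp. The libraries were made with a directional kit, but the sources used here do not state whether reads were counted by strand. Without strand, reads of these partners cannot be told apart, so the levels of Apoa4, Apoa5 and Mttp are less certain than those of the other 7 genes.

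Promoter sequences from RefSeq (GRCm38.p6, 250 bases before to 50 after a start) were found for 8 of the 10 genes, in 12 entries. Apoc1 and Apoc3 had no entry. The letters TATAAA, the core of the TATA box that places the transcription start, were searched on both strands. They occur in 5 of the 12 member entries, from Apoa2, Apoa5, Apob and Apoe, and in 13.6% of all 32851 entries. The 2 entries of Apoa5 overlap and hold the same TATAAA. Within 70 bases before a RefSeq start and on the strand of the gene, TATAAA occurs for Apoa5 and Apob. The share of all entries that meet this narrower rule was not computed. The 30-base windows of both genes are printed only to show where the letters lie. Capitals mark TATAAA.

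Apoa5 (GRCm38.p6, chr9:46268568-46268597, plus strand): cgcctagagTATAAAgtaagagtgtctgct

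Apob (GRCm38.p6, chr12:7977608-7977637, plus strand): agctcctccTATAAAtggagcacttttcaa

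In Apoa5 the first T lies 31 bases before a RefSeq start and 56 bases before another RefSeq start and a GENCODE transcript start. In Apob it lies 60 bases before the RefSeq start and 31 bases before the start of a GENCODE transcript, so the annotated starts of both genes differ in their distance from it. For each gene, the GENCODE start given is the one that lies closest to 30 bases after the first T. The 31 bases in Apob thus depend on this choice among the starts of its 4 GENCODE transcripts. Apoa1, which had one of the highest levels per length, has none of these letters in its window. The letters TGTTTAC, which forkhead factors such as Foxa2 bind, occur in 2 of the 12 member entries, from Apoa2 and Apoe, and in 3.65% of all entries. With only the 250 bases before the start, TGTTTAC occurs in 1 member entry, from Apoa2, and in 3.17% of all entries. The nuclear receptor half-site AGGTCA occurs in 1 of the 12 member entries, from Apoa2, and in 16.3% of all entries. CCAAT occurs in 2 of the 12 member entries, both from Apoa2, and in 37.4% of all entries. These matches are descriptions of letters and not measured binding sites.

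Most other lipoprotein genes lay below the median of the members. This median was 14301 mean normalized counts per exonic kilobase, against 51.5 for all listed genes. Of 12 other apolipoproteins and lipoprotein-bound proteins, 9 were listed, with a median of 2062 counts per kilobase. Apoh, which encodes beta-2-glycoprotein I, was the highest with 14960 and the only one above the members' median. Apoo, whose product is a mitochondrial protein, was the lowest with 20.3. Apod, Apol6 and Apol8 are not among the genes analysed here.

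Genes of particle assembly and secretion had a median of 455 counts per kilobase over 21 genes, all listed. Ces1d, the gene of a carboxylesterase of the endoplasmic reticulum, was the highest with 4059, and Klhl12, the gene of an adaptor that helps to form large transport vesicles, the lowest with 20.2. P4hb, which encodes the partner subunit of the transfer protein, had 3396 counts per kilobase, above Mttp with 966. Of the 21 genes, 8 lay above Mttp and 0 above the members' median.

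Enzymes that remodel particles in plasma, and their regulators, had a median of 191 counts per kilobase over 11 listed genes. Lcat, whose product esterifies the cholesterol of HDL, was the highest with 3887, and Lpl, the lipoprotein lipase of muscle and fat, the lowest with 14. The 5 lipid exporters had a median of 418, from Abcg1 with 29.8 to the phospholipid exporter Abcb4 with 764. Receptors and their regulators had a median of 71 over 13 listed genes, from Sorl1 with 12.3 to Lrp1, the gene of a remnant receptor, with 1235. By median, receptor genes thus lay lowest of these lists, and Lrp1 was the single one above Mttp per exonic kilobase. The lists were not compared per coding kilobase.

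**Figure D3:**
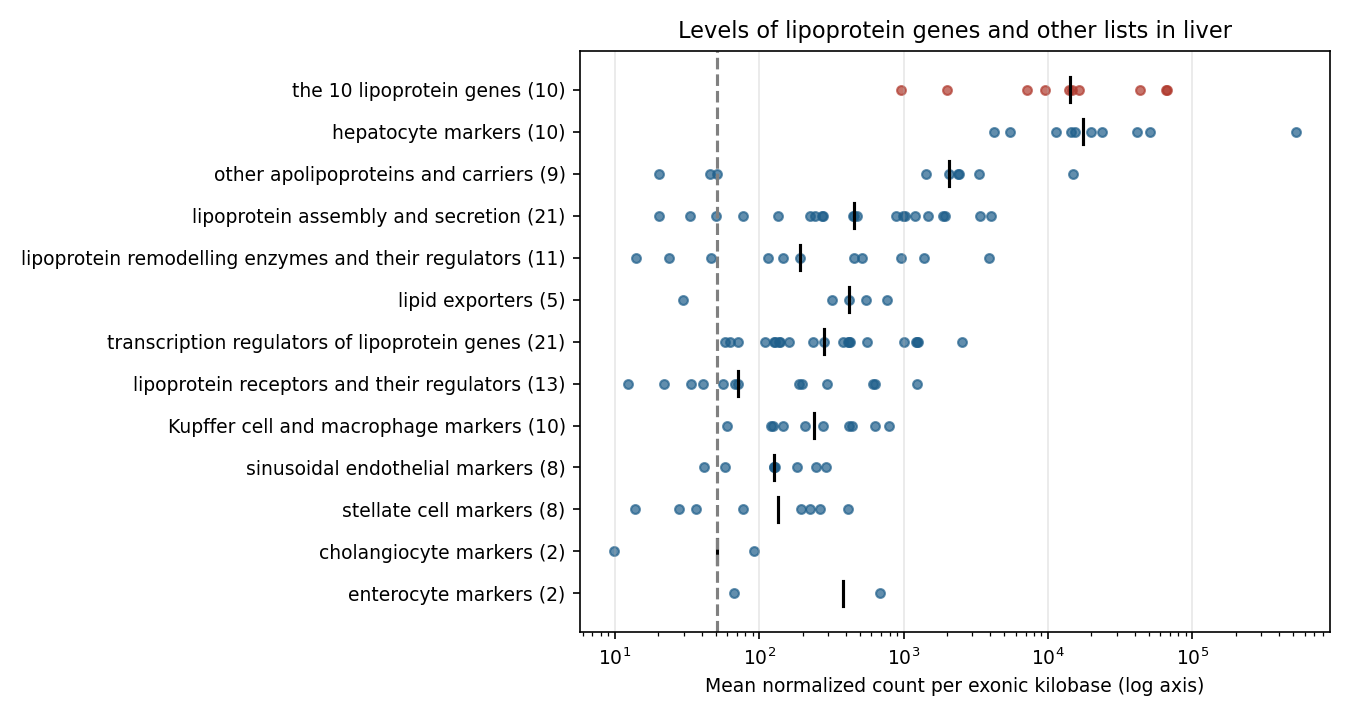
Mean normalized count per exonic kilobase (log axis) of the 10 lipoprotein genes and of the genes in each list, with the number of listed genes in brackets, black bars for the medians and a dashed line for the median of all listed genes. The members lie between 966 and 66444, 8 of them above the lowest hepatocyte marker at 4262, and markers of other liver cell types lie below 1000.

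The tissue label was checked with marker genes. Hepatocyte markers had a median of 17582 counts per kilobase over 10 genes, all listed, from Serpina1c with 4262 to Alb with 519843. Kupffer cell and macrophage markers had a median of 241 over 10 genes, from Adgre1 with 59.9 to Clec4f with 791. Markers of sinusoidal endothelial cells had a median of 127, from Lyve1 with 41.4 to Clec4g with 289. Markers of stellate cells had a median of 135, from Des with 13.8 to Ecm1 with 413. Of 6 cholangiocyte markers, 2 were listed, Spp1 with 91.9 and Sox9 with 9.94. Of 6 genes chosen for enterocytes, Fabp2 with 692 and Apobec1 with 66.7 were listed, while Vil1, Sis, Lct and Alpi are not among the genes analysed here. The 2 listed genes were not taken as specific to enterocytes. Apoa4 and Apob are known to be expressed in enterocytes as well as in the liver, and Apoe in macrophages.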

How the data were processed

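RNA from the livers of 3 Liver LL35 ASO and 3 Liver Luc ASO mice was sequenced by the authors after rRNA depletion. Per the labels and methods, reads were aligned with STAR 2.5.3a, counted on Ensembl genes and normalized by the RLE method of DESeq2. The genome build is not given in the sources used here. The signal analysed is the authors' mean normalized count, deposited as 1 value per gene over the compared libraries. The other 5 numeric columns of the deposited table hold the authors' own comparison (fold change, its standard error, the Wald statistic and p-values) and were not used, so LL35 ASO and Luc ASO livers were not compared. Reads per mouse, and the precision they give, are unknown.

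Symbols were matched to the members and lists, with the older symbols Tf and Ctage5 read as Trf and Mia2 through RefSeq synonyms. Exonic and coding lengths came from GENCODE M21, matched by gene identifier for 11754 of 11779 genes. Levels, ranks, shares and medians were computed with Python 3.11.15, pandas 2.3.3 and numpy 2.4.6, and plotted with matplotlib 3.10.9. The steps were tested on simulated data. Promoters came from the RefSeq table, and 1 of the motifs searched is not reported here. Protein sequences were not used here. No test was run.

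The rule named every member, the highest and the lowest gene of each list, and the genes ranked next to the highest member. P4hb, Apoc2, Apoc4 and the transcription regulators beside the extremes were named after their values were seen. The members and the lists were chosen with earlier results of these data known. Alternatives changed the length, the background genes and the promoter window.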

Additional observations from a re-analysis of the deposited data

How the results depend on the processing

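The span from the highest to the lowest member was 68.8 times per exonic kilobase, 53 times per coding kilobase and 96.5 times without division by length. Against the order per exonic kilobase, 5 of the 10 members took another place per coding kilobase and all 10 took one without division by length. The members' share of the summed level was 4.26%, and 4.28% when only the 9923 genes at or above 50 mean normalized counts were kept. It was 6.57% per exonic kilobase. Without the 10 highest genes, which removes Apob, Apoe and Apoa1 and leaves 7 members, it was 1.23%. The number of members among the 100 highest genes was 6, and between 4 and 8 under these alternatives. TATAAA was found in 4 genes with either promoter window. TGTTTAC was found in 2 genes with the full window and in 1, Apoa2, with only the bases before the start. The alignment of proteins was not run, since protein sequences were not used here. Leaving out single mice was not possible on a mean over libraries. No paired analysis was possible because the deposited means carry no replicate numbers. Depth is unknown and limits how closely neighbouring levels can be told apart.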

Other observations

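The chromosome 7 cluster holds further apolipoprotein genes beside Apoe and Apoc1. Apoc4 had 5232.1 mean normalized counts, or 2062 per exonic kilobase. Apoe was 21 times higher than Apoc4 per exonic kilobase and 7.05 times higher per coding kilobase. Apoc2, whose product activates lipoprotein lipase, had 41.4 mean normalized counts and 50.9 per exonic kilobase. It lay 40.5 times below Apoc4 per exonic kilobase and 98.9 times below it per coding kilobase. In GENCODE M21, Gm44805 overlaps 646 of the 813 exonic bases of Apoc2 on the same strand, and 119 of the 2537 of Apoc4. Reads in such shared bases cannot be assigned to a single gene. The part of this overlap in the low count of Apoc2 was not tested, and its level is uncertain.

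Transcription regulators of lipoprotein genes had a median of 282 mean normalized counts per exonic kilobase over 21 genes, all of them listed. Hnf4a, the nuclear receptor that is central to hepatocyte identity, was the highest with 2550, and Nr2f2 the lowest with 58.4. Creb3l3 had 1252, Rxra 1249, Cebpa 1219 and Ppara 1015 counts per kilobase, and together with Hnf4a these genes lay above Mttp. Among the forkhead genes, Foxa3 had 421, Foxa2 137 and Foxa1 71.9 counts per kilobase.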
